A study of Mus musculus with 24 samples.

Results

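Major urinary proteins (MUPs) are small secreted lipocalins, proteins with a barrel-shaped pocket for hydrophobic ligands, that the mouse liver releases into the blood and the kidney passes into the urine. In urine they carry volatile pheromones and release them slowly, and some are signals in their own right. Their genes lie side by side in a cluster of related copies. Their transcription in hepatocytes follows the pulsatile, male pattern of growth hormone, together with glucocorticoids and thyroid hormone. The transcripts are among the most abundant of the adult male liver, and the family is a standard readout of the male growth hormone pattern. The features of Mup3, Mup20 and Mup21 were looked for by gene symbol, and 2 of the 3 symbols, Mup3 and Mup21, had a row among 25428 gene-level features. Mup20, which encodes the male pheromone darcin, had none and was not analysed here. Of the 25428 features, 24704 distinct named genes entered the tests, both members among them. No filter on low values was applied.

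The values come from whole-liver RNA of mice hybridised to 24 Affymetrix MoGene 2.0 ST arrays, 3 in each of 8 groups. HepCAV1wt mice carried the loxP-flanked Cav1 allele without Cre recombinase, and HepCAV1ko littermates carried the same allele with a Cre transgene driven by the albumin promoter, which removes Cav1 from hepatocytes. Male and female mice of each genotype received a diet without methionine or choline (MCD), which produces fatty liver, or the control diet that contains both. All mice ate chow until 8 weeks of age and the assigned diet for 4 weeks. The 8 groups are therefore HepCAV1wt and HepCAV1ko, male and female, on control or MCD diet. Nothing in the labels says that the numbered arrays of a group are separate mice. A p-value here reflects only the spread among arrays, which may be technical, and the number of arrays limits the precision.

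Each value is a log2 expression level after robust multi-array average (RMA) processing, where 1 unit is a doubling of signal. Every array had the same distribution, with a median of 3.84 and a highest value of 13.53. The 9 measured hepatocyte markers, albumin among them, had mean levels of 12.41 to 12.62 over the 24 arrays, and 0 of 9 passed in any comparison of diet, gender or genotype. Several of them lie near the top of the distribution that all arrays share, where a change has little room. Albumin ranked 1st or 2nd on every array. Xist and Eif2s3y matched the labelled gender on 24 of 24 arrays. In RNA from whole liver, fewer hepatocytes and less Mup RNA per hepatocyte cannot be told apart. Among markers of other cell types, 1 to 5 of 7 macrophage genes and 1 to 3 of 5 stellate cell genes rose on the MCD diet, depending on the group. Of all genes, 2.28% and 2.59% rose in HepCAV1wt males and females, and 3.62% and 0.765% in HepCAV1ko. The mean level of the macrophage list was 5.54 to 6.07 on control-fed and 5.90 to 7.47 on MCD-fed arrays, and that of the stellate list 6.57 to 7.25 and 7.29 to 7.89. Their part in the Mup results was not tested. Replicate 3 of the control-fed HepCAV1ko males stood apart in the acute phase genes Lcn2 and Orm2, at 12.66 and 12.14, against 6.86 and 7.37 for Lcn2 and 6.46 and 6.87 for Orm2 on the other arrays of its group. It also had the lowest Mup21 value of that group, so the Mup21 results of that group are given with and without it. Cav1 itself was low in whole liver, with group means of 3.76 to 4.42, and passed in none of the 4 genotype comparisons (log2 fold change of -0.65 to -0.05, smallest adjusted p = 0.792 by limma).

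Probes for one Mup gene can bind RNA of another. RefSeq names 22 genes Mup with a number and a further 24 pseudogenes, and the probe sequences behind each feature were not used here. Each value is therefore read as the signal of its labelled gene plus an unknown share of its close copies. Mup3 and Mup21 are neighbours at one edge of the cluster on chromosome 4, next to Mup20, and away from the central block of copies that holds Mup9 and Mup13. The sequences upstream of the members are shown because they lie outside the transcript and show how alike the genes are even there. The 250 bases before each annotated RefSeq start (GRCm38.p6) are written 5′ to 3′, Mup3 from chr4:62087318-62087567 and Mup21 from chr4:62150842-62151091, both on the minus strand.
Mup3: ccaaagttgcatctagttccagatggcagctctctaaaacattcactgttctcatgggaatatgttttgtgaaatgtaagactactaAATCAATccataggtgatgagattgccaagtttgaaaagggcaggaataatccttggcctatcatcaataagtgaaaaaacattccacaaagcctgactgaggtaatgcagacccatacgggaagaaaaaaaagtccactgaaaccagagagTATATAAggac
Mup21: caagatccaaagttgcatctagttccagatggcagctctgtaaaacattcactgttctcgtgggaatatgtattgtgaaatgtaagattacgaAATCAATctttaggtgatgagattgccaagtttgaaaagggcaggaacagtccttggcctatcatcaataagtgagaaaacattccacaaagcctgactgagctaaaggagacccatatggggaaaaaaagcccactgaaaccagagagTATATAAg
The capitals mark AATCAAT, the core letters recognised by Onecut1 (HNF6), and TATATAA, letters of the TATA box type. TATATAA stood 11 to 5 bases before the annotated start of Mup3 and 8 to 2 bases before that of Mup21. Whether it acts as a TATA box for these starts was not tested. In a global alignment 229 of 256 columns were identical (89.5%). Searched on both strands with no overlap between the motifs, AATCAAT occurred once in each sequence, as it did in 2.61% of 32817 RefSeq windows of the same length, and TATATAA once in each, as in 3.04%. The STAT5-type letters TTCNNNGAA were in neither window and in 7.01% of all windows. These are matches of letters and no measurement of binding.

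Mup3 encodes a liver MUP of the peripheral part of the cluster. On the control diet it was among the brightest features of every array, between the 2nd and the 10th from the top, and albumin was 1st or 2nd. In HepCAV1wt males the 3 arrays gave 13.28, 13.46 and 13.28, and in HepCAV1ko males 13.28, 13.28 and 13.28. In HepCAV1wt females they gave 13.28, 13.28 and 12.93, and in HepCAV1ko females 13.10, 13.04 and 13.10. All 12 control-fed arrays thus lay within 0.59 of the highest value that any gene can take, and the identical values come from the same place in the distribution that all arrays share. How far that ceiling compresses the differences between these 4 groups was not tested.

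On the MCD diet Mup3 was lower in all 4 groups. The HepCAV1wt male arrays were at 12.25, 12.33 and 11.40, and the HepCAV1ko male arrays at 11.70, 11.89 and 11.52. HepCAV1wt females had 10.63, 9.87 and 10.29, and HepCAV1ko females 10.83, 10.90 and 10.69. The highest of the 12 MCD-fed arrays, 12.33, was below the lowest of the 12 control-fed arrays, 12.93. Within the MCD diet all 6 female arrays lay below all 6 male arrays. The shares of all genes that separate over such pooled arrays were not computed. Mup3 moved to between the 38th and the 128th place from the top in males and between the 205th and the 493rd in females. Its feature thus stayed among the brighter ones of each array.

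**Figure D1:**
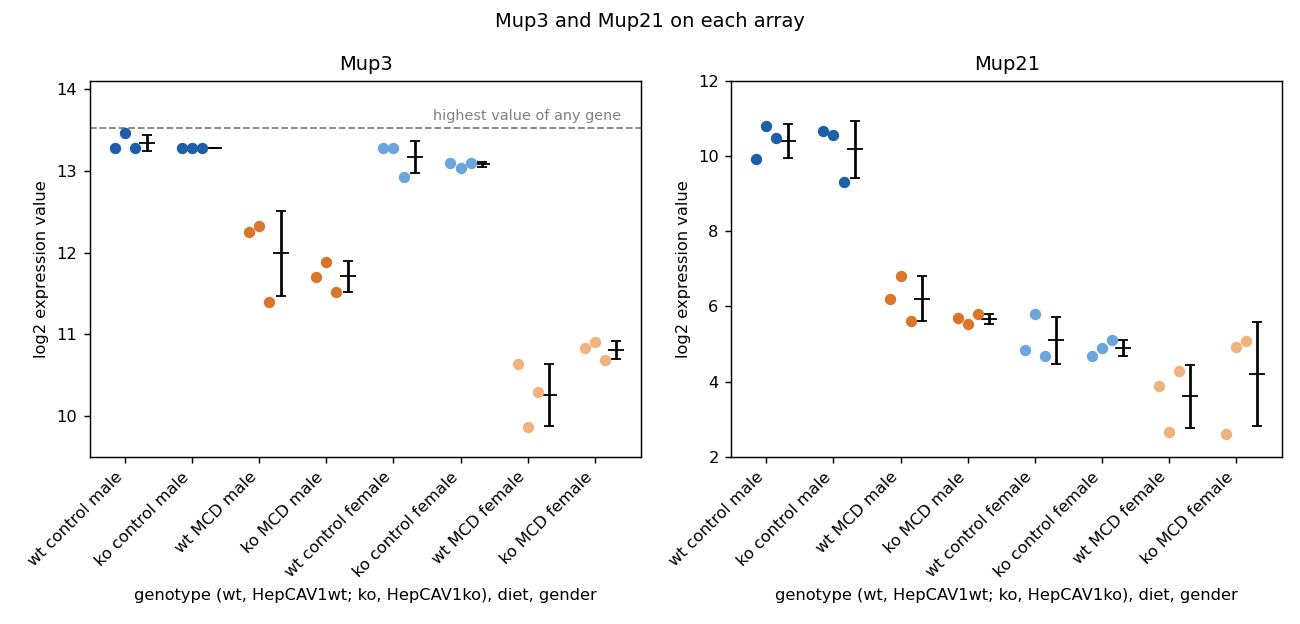
Log2 expression of Mup3 (left) and Mup21 (right) on each of the 24 arrays by genotype, diet and gender. Points are arrays, and black marks show the mean ± SD of 3 arrays. The dashed line is the highest value of any gene, 13.53. Control-fed Mup3 arrays sit just under it, while Mup21 is high only in the 6 control-fed male arrays.

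Mup3 fell in each of the 4 diet comparisons by limma with Benjamini-Hochberg adjustment over all genes tested, at a threshold of 0.05 for the adjusted p. In HepCAV1wt males the level went from 13.34 ± 0.10 (SD, n = 3) to 11.99 ± 0.52, a change of -1.35 on the log2 scale (SE 0.20, adjusted p = 2.1e-04). HepCAV1wt females went from 13.17 ± 0.20 to 10.26 ± 0.38, at -2.90 (SE 0.20, adjusted p = 2.6e-08). HepCAV1ko males went from 13.28 ± 0.00 to 11.71 ± 0.19, at -1.58 (adjusted p = 2.1e-05), and the HepCAV1ko females from 13.08 ± 0.03 to 10.81 ± 0.11, at -2.27 (adjusted p = 1.5e-06). As background, 2.09% and 2.34% of all genes passed as lower on the MCD diet in males and females of HepCAV1wt, and 3.02% and 0.878% in those of HepCAV1ko. The shares of all genes whose arrays did not overlap, as those of Mup3 did not, were 20.7%, 20.7%, 23.3% and 16.5%. The control values from which these falls are read sit at the ceiling, so no fold is given for Mup3. The small spread of those values also enters the SE, which all groups share.

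Mup21 is the outermost gene of the cluster and was expressed in a different pattern. The control-fed HepCAV1wt male arrays gave 9.92, 10.81 and 10.49, and the HepCAV1ko male arrays 10.66, 10.56 and 9.32. HepCAV1wt females on the same diet had 4.83, 5.81 and 4.67, and HepCAV1ko females 4.68, 4.89 and 5.11. The lowest control-fed male array, 9.32, was far above the highest control-fed female array, 5.81. For this pooling of genotypes too the share of all genes was not computed. The male arrays ranked between the 224th and the 780th feature from the top, whereas the female arrays ranked between the 6919th and the 9993rd, not far above the array median of 3.84.

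On the MCD diet the male level of Mup21 was far lower. HepCAV1wt males were at 6.19, 6.80 and 5.61, and HepCAV1ko males at 5.68, 5.54 and 5.80. The female arrays had 3.87, 2.67 and 4.29 in HepCAV1wt and 2.61, 4.92 and 5.07 in HepCAV1ko. Of the 6 MCD-fed male arrays, those at 6.19 and 6.80 lay above every control-fed female array, and the others were below the highest of these, 5.81. The MCD-fed female arrays reached down below the array median, and a change in that range is read near the background of the array.

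Mup21 fell in males of both genotypes. In HepCAV1ko males it went from 10.18 ± 0.75 to 5.67 ± 0.13 (SD, n = 3), a change of -4.51 on the log2 scale (SE 0.52, 95% interval -5.58 to -3.43, adjusted p = 7.9e-06), or 22.7-fold lower. Without replicate 3 of the control-fed HepCAV1ko males the change was -4.94 (adjusted p = 1.1e-05). In HepCAV1wt males it went from 10.41 ± 0.45 to 6.20 ± 0.60, 18.5-fold lower, with an adjusted p of 3.0e-05. In females neither comparison passed. HepCAV1wt females went from 5.10 ± 0.62 to 3.61 ± 0.84, at -1.49 (interval -2.57 to -0.42, adjusted p = 0.11), with no overlap between the 3 and 3 arrays, as was so for 20.7% of all genes. HepCAV1ko females went from 4.89 ± 0.21 to 4.20 ± 1.38, at -0.69 (interval -1.76 to 0.39, adjusted p = 0.72), and the arrays overlapped. The 1 array at 2.61 decided that value. Without HepCAV1ko MCD female replicate 1 it was 0.11, and the HepCAV1wt female value of -1.49, whose spread is shared, then passed (adjusted p = 0.031).

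The 2 members thus ordered the 8 groups differently. For Mup3 the order of means from the highest was control-fed HepCAV1wt males, HepCAV1ko males, HepCAV1wt females and HepCAV1ko females, then MCD-fed HepCAV1wt males, HepCAV1ko males, HepCAV1ko females and HepCAV1wt females. The 2 male groups on the MCD diet overlapped each other, and the steps that separated neighbouring groups without overlap were those from control to MCD, from MCD-fed males to females, and between the genotypes of MCD-fed females. For Mup21 the order was control-fed HepCAV1wt and HepCAV1ko males, MCD-fed HepCAV1wt and HepCAV1ko males, control-fed HepCAV1wt and HepCAV1ko females, and MCD-fed HepCAV1ko and HepCAV1wt females. The 1 step without overlap between neighbours was that from control-fed to MCD-fed males. These steps describe groups sorted by their own means, and the share of all genes with such steps was not computed. The 8 group means spanned 3.08 log2 units for Mup3 and 6.79 for Mup21, and across the 8 group means the members correlated at r = 0.68. After the group means were removed, the 24 arrays correlated at r = 0.39, as a description of arrays that share a processing run.

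The gender difference of Mup3 is compared between diets with a limit, since its control-fed levels all sit at the ceiling, where a difference between genders has little room. For Mup3 males and females on the control diet were close, with a male minus female difference of 0.18 (SE 0.20, interval -0.23 to 0.58, adjusted p = 0.823) in HepCAV1wt and 0.20 (interval -0.20 to 0.61, adjusted p = 0.766) in HepCAV1ko, both measured under the ceiling. On the MCD diet Mup3 was 1.73 higher in HepCAV1wt males than females (SE 0.20, adjusted p = 3.0e-05), where 0.0891% of all genes passed as higher in males and 11.5% did not overlap. This SE shares its spread with the control-fed groups at the ceiling. Their SDs were 0 to 0.20, against 0.52 and 0.38 in the MCD-fed HepCAV1wt males and females. On the arrays of the comparison alone the difference of 1.73 did not pass. In HepCAV1ko the MCD-fed difference of 0.90 (interval 0.49 to 1.31) had an adjusted p of 0.0655 and did not pass, although the arrays did not overlap, as was so for 11.6% of all genes. Among all genes 0.0931% passed as higher in males there. It passed without HepCAV1wt MCD male replicate 3 (adjusted p = 0.00615) and without HepCAV1wt MCD female replicate 1 or 2 (adjusted p = 0.04 and 0.0377), at the same 0.90. For Mup21 the control-fed difference of 5.29 in HepCAV1ko (SE 0.52, adjusted p = 7.0e-07), 39.1-fold, passed along with 0.672% of all genes as higher in males, and it was 5.72 (adjusted p = 1.1e-06) without replicate 3 of the control-fed males. It was of the same size in HepCAV1wt, where it was 39.5-fold and 0.563% passed, and in neither genotype did the arrays overlap, as in 15.6% and 16.5% of all genes. On the MCD diet it was 2.59 in HepCAV1wt (SE 0.52, adjusted p = 0.0321) and 1.47 in HepCAV1ko (adjusted p = 0.533). The HepCAV1wt value no longer passed without either of replicates 1 and 2 of the MCD-fed males or of the MCD-fed females, with values of 2.12 to 2.72 and adjusted p of 0.0896 to 0.242.

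**Figure D2:**
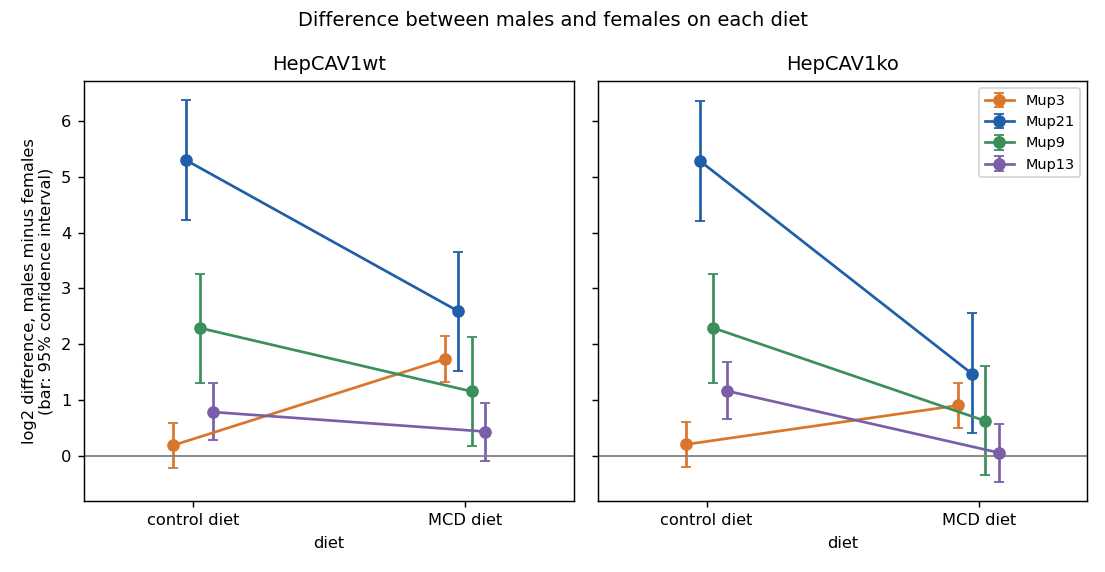
Log2 difference between males and females of Mup3, Mup21, Mup9 and Mup13 on the control and the MCD diet, for HepCAV1wt (left) and HepCAV1ko (right). Bars are 95% confidence intervals of the limma fit. Mup3 goes up from 0.18 to 1.73 in HepCAV1wt, while Mup21 comes down from 5.30 to 2.59.

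The difference of the diet effects between genders was tested directly. For Mup3 this test rests on the same control-fed levels at the ceiling and on the same shared spread. For Mup21 it rests on control-fed female means of 5.10 and 4.89, not far above the array median of 3.84. A fall has less room there than from the male levels, and how far this enters the differences was not tested. For Mup3 the diet effect of males minus that of females was 1.55 in HepCAV1wt (SE 0.28, interval 0.98 to 2.13, adjusted p = 0.0143), where 0.182% of all genes passed, and 0.70 in HepCAV1ko (interval 0.12 to 1.27, adjusted p = 0.701). For Mup21 it was -2.72 in HepCAV1wt (interval -4.24 to -1.20, adjusted p = 0.204) and -3.82 in HepCAV1ko (SE 0.73, interval -5.34 to -2.30, adjusted p = 0.0274), where 0.174% passed. The Mup3 value no longer passed without HepCAV1wt MCD male replicate 2 (1.38, adjusted p = 0.0506) or HepCAV1wt MCD female replicate 2 (1.35, adjusted p = 0.0503). Without replicate 3 of the control-fed HepCAV1ko males the Mup21 value in HepCAV1ko was -4.25 (adjusted p = 0.0113). It was lost without either of replicates 1 and 2 of the control-fed males, any control-fed female, any MCD-fed male, or either of replicates 2 and 3 of the MCD-fed females, at -3.93 to -3.38 and adjusted p of 0.0517 to 0.0995. The sign was the same in both genotypes for each gene, so the average over genotypes was computed after these values were seen. It was 1.12 for Mup3 (SE 0.20, adjusted p = 0.00439) and -3.27 for Mup21 (SE 0.52, adjusted p = 0.00171), and 0.534% of all genes passed. The difference between genotypes in it did not pass, at -0.86 for Mup3 (interval -1.67 to -0.04, adjusted p = 0.824) and -1.10 for Mup21 (interval -3.25 to 1.05, adjusted p = 0.94), with 0% of all genes passing.

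Hepatocyte Cav1 deletion was not accompanied by a change of either member that passed. For Mup3, HepCAV1ko minus HepCAV1wt was -0.06 (interval -0.47 to 0.35) in control-fed males, -0.09 (interval -0.50 to 0.32) in control-fed females and -0.29 (interval -0.69 to 0.12) in MCD-fed males. In MCD-fed females it was 0.54 (interval 0.14 to 0.95, adjusted p = 0.999, unadjusted p = 0.0114), and all 3 HepCAV1ko arrays lay above all 3 HepCAV1wt arrays, as in 10.2% of all genes in either direction. For Mup21 the differences were -0.23, -0.21, -0.53 and 0.59 in the same order, each with an interval that includes 0 (bounds from -1.60 to 1.66). Without replicate 3 of the control-fed HepCAV1ko males the first of these was 0.20. The share of all genes that passed limma was 0.00405% in control-fed males and 0% in the other 3 comparisons, where 968 to 1376 genes had an unadjusted p under 0.05 and the methods' t-test also called 0 after adjustment. Averaged over diets and genders, a contrast added after the data were seen, the genotype difference was 0.03 for Mup3 (interval -0.18 to 0.23). For Mup21 it was -0.09 (interval -0.63 to 0.44). For both genes this average joins a negative value in MCD-fed males and a positive one in MCD-fed females. For Mup3 it also includes the control-fed differences measured under the ceiling. It therefore does not show that each group lacked a genotype difference.

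The other 4 features with a Mup symbol were Mup9 and Mup13, of the central block, Mup5, which is made mainly outside the liver, and Mup-ps12, which is named as a pseudogene. Mup9 followed Mup21 at a smaller scale, with control-fed male arrays at 9.06, 7.99 and 8.33 in HepCAV1wt and 7.53, 9.49 and 9.22 in HepCAV1ko. On the MCD diet the same male groups had 6.58, 6.38 and 5.57, and 5.91, 5.66 and 5.71. None of these arrays overlapped between diets, as in 20.7% and 23.3% of all genes in males of HepCAV1wt and HepCAV1ko. Mup9 fell by 2.29 in HepCAV1wt males (SE 0.47, adjusted p = 0.00518) and changed by -2.99 in HepCAV1ko males (adjusted p = 3.1e-04). In females its changes of -1.15 and -1.32 did not pass (adjusted p = 0.193 and 0.21). It was 2.29 higher in control-fed males than females in each genotype (adjusted p = 0.0117 in both), which no longer passed without replicate 1 of the HepCAV1wt males (1.99) or replicate 3 of the HepCAV1wt females (2.00), or without replicate 2 or 3 of the HepCAV1ko males (1.91 and 2.05), with adjusted p of 0.0776 to 0.0847.

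Mup13 had a narrower span. Its group means ran from 7.02 to 8.58, and it fell by 1.13 in HepCAV1wt males (SE 0.25, adjusted p = 0.00874) and by 1.36 in HepCAV1ko males (adjusted p = 0.00136). Its changes in females were -0.77 and -0.24 (adjusted p = 0.0791 and 0.83). Males exceeded females on the control diet by 1.16 in HepCAV1ko (adjusted p = 0.0147) and by 0.78 in HepCAV1wt (adjusted p = 0.158). The HepCAV1wt male fall was lost without control male replicate 1 (-0.99, adjusted p = 0.0602), and the HepCAV1ko gender difference without control male replicate 1 (0.96) or control female replicate 1 (1.13) or 3 (1.15), at adjusted p of 0.0509 to 0.0784. The HepCAV1wt gender difference passed without control female replicate 1 (1.19, adjusted p = 0.00194), and the HepCAV1wt female diet change passed without control female replicate 2 (-0.98, adjusted p = 0.0414) or 3 (-0.96, adjusted p = 0.048). Mup-ps12 was lower in males, with group means of 2.23 to 3.04 against 3.97 to 5.01 in females. The male means lay below the array median of 3.84, so these differences are read near the background of the array. Mup-ps12 was 1.99 lower in control-fed HepCAV1ko males than females (SE 0.49, adjusted p = 0.0414), where 0.81% of all genes passed as lower in males. The other 3 gender differences of -1.72, -1.74 and -1.90 did not pass. Leaving out any 1 of 10 arrays ended that call, which were all HepCAV1wt control males, HepCAV1wt control female replicate 2, HepCAV1wt MCD male replicate 2, HepCAV1ko control male replicates 2 and 3 and all HepCAV1ko control females (-2.17 to -1.47, adjusted p of 0.0502 to 0.285). Without HepCAV1ko control male replicate 1 the HepCAV1wt control difference of -1.72 passed (adjusted p = 0.0468). Mup5 stayed between 2.20 and 3.34 on all 24 arrays, below the array median, and passed in no comparison, except that its HepCAV1wt male diet change passed without MCD male replicate 1 (-0.81, adjusted p = 0.0494). Group means of Mup9 and Mup13 correlated with those of Mup21 at r = 0.96 and 0.94 and with those of Mup3 at r = 0.81 and 0.79 over 8 groups. How far this reflects shared probe sequence was not tested.

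**Figure D3:**
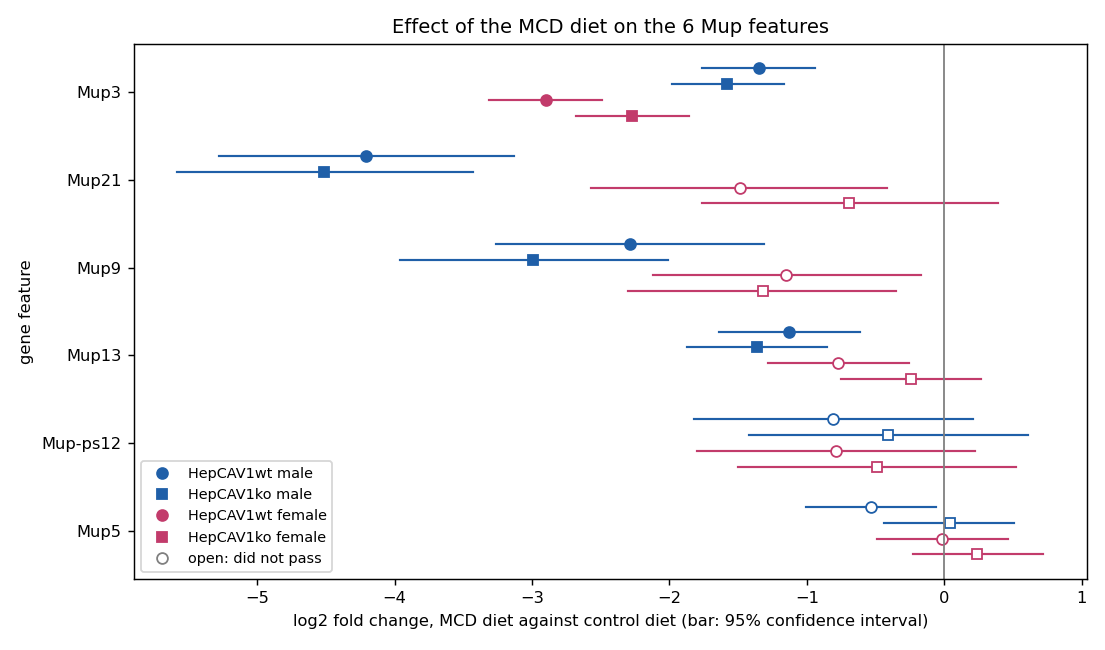
Log2 fold change of MCD against control diet for the 6 Mup features in each genotype and gender, with 95% confidence intervals. Filled symbols passed at an adjusted p under 0.05, open symbols did not. For Mup3 the female symbols lie furthest to the left, and for Mup21, Mup9 and Mup13 the male symbols do.

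The genes whose 8 group means were most like those of a member were ranked by Pearson's r among 1644 genes with group means spanning at least 1 log2 unit, Mup features left out. For Mup3 they were Urad (r = 0.987), an enzyme of uric acid breakdown, Wfdc21 (0.987), a small secreted protein, Cyp2c54 (0.980), a cytochrome P450, Ces3b (0.969), a carboxylesterase, and Dexi (0.969). Cyp2c54 had group means of 9.77 and 9.84 in control-fed HepCAV1wt males and females and 7.70 and 5.65 on the MCD diet. In the same control-fed males and females Urad had 10.37 and 10.38, Wfdc21 10.03 and 9.85, and Dexi 7.92 and 7.88. Ces3b was further apart there, at 10.56 and 9.38. The control-fed Mup3 means were close too, but they were measured at the ceiling. For Mup21 they were Selenbp2 (r = 0.997), a selenium-binding protein, C8b (0.995) and C9 (0.991), components of the complement membrane attack complex, Cyp4a12b (0.994), a male-specific fatty acid hydroxylase, and Cyp7b1 (0.992), an oxysterol hydroxylase. Cyp7b1 stood at 11.19 and 7.62 in control-fed HepCAV1wt males and females and at 8.71 and 6.23 on the MCD diet. With the group means removed, r over 24 arrays lay between -0.40 and 0.22 for the genes like Mup3 and between -0.28 and 0.40 for those like Mup21.

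**Figure D4:**
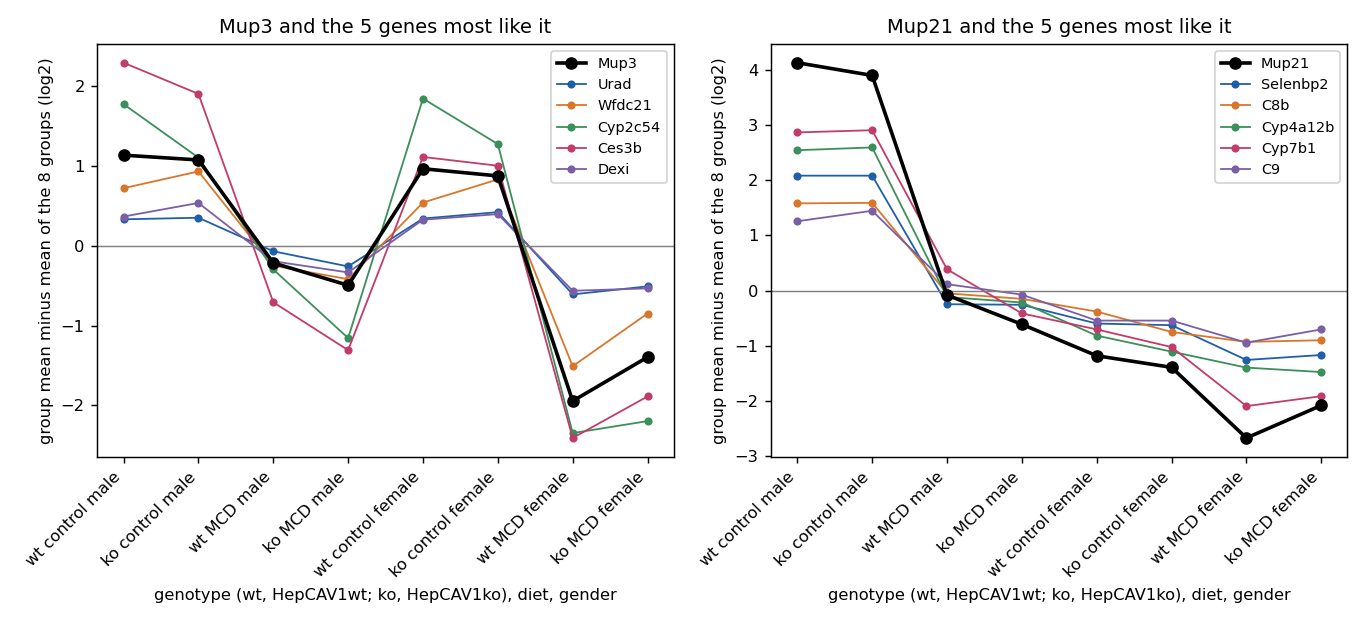
Group means of Mup3 (left) and Mup21 (right), in black, with the 5 genes most like each, as log2 deviation from the mean of the 8 groups. The Mup3 genes fall with diet in both genders and the Mup21 genes peak in control-fed males. The genes were chosen for this likeness.

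The gene lists counted from here on were written with earlier results of these data known, so their counts are a description. Genes with a male-biased liver pattern were lower in MCD-fed males, as Mup21 was. Of 14 such genes, 13 fell in males of each genotype on the MCD diet, with a median log2 fold change of -2.82 in HepCAV1wt and -2.81 in HepCAV1ko, against -0.01 and -0.02 over all genes, of which 2.09% and 3.02% fell. In females 5 fell in HepCAV1wt (median -0.79), where 2.34% of all genes did, and 2 fell and 1 rose in HepCAV1ko (median -0.60), where 0.878% and 0.765% did. Moxd1, a monooxygenase-like protein, went from 7.41 to 2.51 in HepCAV1wt males (adjusted p = 2.2e-08), and C6, a terminal complement component, from 10.90 to 8.23 (adjusted p = 3.9e-08). The complement gene C4a fell by 2.97 and Nudt7, a peroxisomal coenzyme A hydrolase, by 2.02. Of 12 genes with a female-biased pattern, 5 rose in males of each genotype (median 0.98 in HepCAV1wt and 0.91 in HepCAV1ko), beside 2.28% and 3.62% of all genes, and 2 fell in females of each genotype, beside 2.34% and 0.878%. Cyp2b9, a cytochrome P450 of the female liver, went from 2.50 to 10.72 in HepCAV1wt males (adjusted p = 3.7e-12) and Cyp2a4 from 7.09 to 10.78 (adjusted p = 3.6e-08).

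Some genes of the growth hormone pathway and other regulators of Mup genes were lower too. Of 21 measured, 6 fell in each gender of HepCAV1wt, 6 in HepCAV1ko males and 4 in HepCAV1ko females, and 0 rose, with medians of -0.32, -0.48, -0.40 and -0.44 against -0.02 to -0.01 over all genes. The shares of all genes that fell were 2.09%, 2.34%, 3.02% and 0.878% in males and females of HepCAV1wt and of HepCAV1ko. Ghr, the growth hormone receptor, fell in all 4 groups, from 10.36 to 9.40 in HepCAV1wt males (a change of -0.96, SE 0.13, adjusted p = 1.4e-04) and by 0.68 to 1.02 in the others. Stat5b, the transcription factor that growth hormone pulses activate in males, fell in HepCAV1wt females by 0.89 (adjusted p = 3.4e-04) and had -0.33, -0.40 and -0.44 in the groups where it did not pass. Igfals, a carrier subunit for insulin-like growth factor, fell in all 4 groups by 0.60 to 1.03, and Cish, a feedback inhibitor induced by STAT5, fell by 1.56 in HepCAV1wt males (adjusted p = 0.00488). Cish did not pass in HepCAV1wt females (-0.58), HepCAV1ko males (0.23) or HepCAV1ko females (-0.44). Onecut1 fell by 2.32 in HepCAV1wt males (SE 0.49, adjusted p = 0.00709) and had -0.65 in HepCAV1ko males (adjusted p = 0.54). Its changes in females were -1.11 in HepCAV1wt and -1.10 in HepCAV1ko and did not pass. Its control-fed male level was 6.53 in HepCAV1ko and 9.35 in HepCAV1wt, a difference that did not pass (-2.82, adjusted p = 0.0703). Hnf4a, a hepatocyte nuclear receptor, and Zhx2, a regulator of liver genes, did not pass in any group (-0.33 to -0.05). Bcl6, a repressor that is higher in male liver, had -1.72 to 0.38 and did not pass either. Cux2, a repressor of the female liver, fell by 1.04 in HepCAV1ko females (adjusted p = 0.0145). Whether any of these changes bears on the Mup levels was not tested.

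The wider lipocalin family was counted too. Of 10 measured relatives, 1 rose and 1 fell in HepCAV1wt males, 0 rose and 0 fell in HepCAV1wt females, and 1 fell in each HepCAV1ko group, with medians from -0.17 to 0.12. With 10 genes, 1 call is already above the shares of all genes that rose (2.28%) or fell (2.09%) in HepCAV1wt males, so nothing is read from these counts. C8g, a lipocalin subunit of complement C8, fell by 0.74 in HepCAV1wt males (adjusted p = 0.00117). Lcn2, an iron-binding acute phase lipocalin, went from 6.77 to 10.35 in the same group (a rise of 3.58, SE 1.01, adjusted p = 0.0452). Its changes of 2.64 in females of HepCAV1wt and 1.92 and 2.10 in males and females of HepCAV1ko did not pass. The value of 1.92 and the shared SE include replicate 3 of the control-fed HepCAV1ko males. That array had 12.66, against 6.86 and 7.37 on the others of its group. Lcn2 changes without it were not computed. Ambp, the precursor of a plasma lipocalin, had -0.18 to -0.09 over the 4 groups and did not pass.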

How the data were processed

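The authors processed Affymetrix MoGene 2.0 ST arrays of whole-liver RNA by robust multi-array average (RMA, version not given in the sources used here) and deposited log2 values, 1 per gene-level feature and array. The normalization gave every array the same distribution, so a feature near the top has a ceiling. Of 25428 features, 24705 had a gene symbol in the platform table and 723 had none there and stay unnamed, so a further Mup gene among them was not analysed here. No sequencing depth applies, and 3 arrays per group limit the precision. The 24704 genes tested were fitted in limma 3.58.1 (R 4.3.3) with 8 group means, moderated variances and 16 residual degrees of freedom. The Benjamini-Hochberg adjustment ran across all of these genes, with a threshold of 0.05. No filter on low values was applied and 0 per-sample columns were left unused. The code was tested on simulated data made for the diet comparison in HepCAV1wt males over 24704 genes, where it recovered 80% of the changes of 1 log2 unit and 99% of those of 2. The methods' t-test on each comparison's 6 arrays was an alternative, as were the replicate block, array weights, unmoderated variances, a variance trend, an expression filter, other scalings, all features, a fit to each comparison's arrays and leaving out each array. Every feature with a Mup symbol was named, with the 5 genes most like each member and, from 4 gene lists, up to 4 genes with the smallest adjusted p in the diet comparison of HepCAV1wt males and 7 regulators. The members and lists were chosen with earlier results of these data known.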

Additional observations from a re-analysis of the deposited data

Results flagged for a closer look

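The diet effect on Mup3 differed between genders in HepCAV1wt by the test of the difference itself. Males minus females was 1.55 on the log2 scale (adjusted p = 0.0143 by limma), with diet changes of -1.35 in males and -2.90 in females, and the same difference in HepCAV1ko was 0.70 and did not pass. The diet effect on Mup21 differed between genders in HepCAV1ko, at -3.82 (adjusted p = 0.0274), with diet changes of -4.51 in males and -0.69 in females, and in HepCAV1wt it was -2.72 and did not pass. The control-fed Mup3 arrays lay at the ceiling of the scale and the female Mup21 arrays near or below the array median, and the part of either in these differences was not tested. Each group held 3 arrays, too few for a search for single outlying arrays.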

How the results depend on the processing

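The values are limited by 3 arrays per group, by the ceiling of the scale for Mup3, by signals near the array median for Mup21 in females, and by probes that may be shared among Mup copies. The falls of Mup3 in all 4 diet comparisons and of Mup21 in males kept their direction and call in every alternative but the methods' t-test. Its values were the same but adjusted p was higher, at 0.233 and 0.114 for Mup3 in HepCAV1wt males (-1.35) and females (-2.90), 0.075 and 0.0519 in HepCAV1ko males (-1.58) and females (-2.27), and 0.104 and 0.084 for Mup21 in HepCAV1wt (-4.21) and HepCAV1ko males (-4.51). By that test the gender differences of Mup21 were at 0.129 (5.30, HepCAV1wt control), 0.14 (5.29, HepCAV1ko control) and 0.757 (2.59, HepCAV1wt MCD), and that of Mup3 at 0.745 (1.73, HepCAV1wt MCD). It called 1 gene in each diet comparison, where limma called 1079, 1216, 1640 and 406, and 8, 1, 9 and 1 genes in the gender comparisons against 314, 53, 366 and 50, with 883 to 3790 genes at an unadjusted p under 0.05 over its 12 comparisons.

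Without moderated variances the HepCAV1wt MCD gender difference of Mup21 (2.59, adjusted p = 0.152), the Mup3 difference of diet effects in HepCAV1wt (1.55, 0.0531) and that of Mup21 in HepCAV1ko (-3.82, 0.164) no longer passed, and the MCD gender counts were 32 and 23, with 25 genes against 43 for the difference of diet effects in HepCAV1ko. On the arrays of the comparison alone, with fewer residual degrees of freedom, the same 3 were at 0.0802 (2.59), 0.121 (1.55) and 0.096 (-3.82), the Mup3 gender difference of 1.73 was at 0.0802, and counts fell to 679, 665 and 144 genes for diet in HepCAV1wt males, HepCAV1wt females and HepCAV1ko females. The gender counts there were 206 and 176 on the control diet and 27 in MCD-fed HepCAV1wt. The HepCAV1ko MCD gender difference of Mup3 passed with array weights (0.86, 0.0275), a variance trend (0.90, 0.0363) and genes above the median expression (0.90, 0.0438). Array weights gave 733 genes for diet in HepCAV1ko females and 81 and 94 for gender on the MCD diet. The average of the diet by gender difference over genotypes, chosen after seeing the data, passed for Mup21 (-3.27, 0.00171) and Mup3 (1.12, 0.00439).

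The labels do not say that a replicate number pairs arrays across groups. Same-numbered arrays had correlations of -0.14 to 0.25 (median 0.03, against -0.01 for other numbers), with 16 of 84 pairs over 0.1, while 17 of 24 arrays were best matched by an array of their own number, a hint from the data only. With the replicate number as a block, the HepCAV1ko MCD gender difference of Mup3 (0.90) passed at 0.0441, and no other call of Mup3 or Mup21 changed.

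Leaving out 1 array at a time gave ranges of -1.83 to -1.02 for the Mup21 diet change in HepCAV1wt females and -1.12 to 0.11 in HepCAV1ko females, 2.12 to 2.93 for its HepCAV1wt MCD gender difference, and -0.47 to 0.20 and -0.43 to 0.14 for its genotype difference in control-fed males and females. The Mup3 gender difference in MCD-fed HepCAV1ko ran from 0.81 to 0.99, and the diet by gender difference from 1.35 to 1.85 for Mup3 in HepCAV1wt and from -4.61 to -3.38 for Mup21 in HepCAV1ko. The diet change of Mup5 ran from -0.19 to 0.16 in HepCAV1wt females and from -0.12 to 0.24 in HepCAV1ko males, its HepCAV1wt MCD gender difference from -0.32 to 0.16, the Mup-ps12 diet change in HepCAV1ko males from -0.92 to 0.20, and the Mup13 gender difference in MCD-fed HepCAV1ko from -0.05 to 0.13. The counts of genes ran from 615 to 1127, 574 to 1301, 913 to 1734 and 151 to 611 for diet in HepCAV1wt males and females and HepCAV1ko males and females, from 181 to 333, 27 to 72, 183 to 374 and 26 to 58 for gender in HepCAV1wt on the control and MCD diets and in HepCAV1ko, from 25 to 53 (45 with all arrays) and 28 to 49 (43) for the difference of diet effects, and from 1 to 6 (1 with all arrays) for genotype in control-fed males.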
